A study of Rattus norvegicus with 12 samples.

Results

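Fatty acid oxidation enzymes were examined in rat kidney RNA of 2 models of renal fibrosis. The 39 genes are a list fixed by name and chosen with earlier results of these data known. They cover acyl-CoA activation, the carnitine shuttle and the mitochondrial and peroxisomal steps of beta-oxidation, with a few partners such as Acot12 and Pex11a. All 39 were among the 32623 entries of the sham and UUO table and 37 were among the 22132 entries of the control and adenine table, each as a single entry. Decr2 and Eci2 were not analysed here in the adenine model. By place of their enzymes, 21 members were taken as mitochondrial, 10 as peroxisomal and 8 as acting in both or in another place.

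All 12 samples were kidneys of male wild-type SD rats, 3 in each of 4 groups, and the labels name each sample as a separate rat. Adenine was placed in the stomach daily (220 mg/kg) over 3 weeks in the adenine group, and saline in the control group. In the UUO group (unilateral ureteral obstruction) the left ureter was tied and kidneys were taken after 2 weeks, and the sham group had the same surgery without ligation. Adenine was thus given to the whole animal and ligation acted on 1 ureter, so the models differ in cause and duration. The labels give no region of the kidney.

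Long-chain fatty acids are joined to coenzyme A, carried into mitochondria on carnitine, and shortened in repeated rounds of dehydrogenation, hydration, a second dehydrogenation and thiolysis. Electrons from the first step pass through the electron transfer flavoprotein to the respiratory chain. Peroxisomes run a parallel pathway for very long and branched chains, in which the first step is an oxidase that makes hydrogen peroxide. The proximal tubule, the segment that reabsorbs most filtrate, is rich in both organelles and relies on fatty acids for fuel, and the nuclear receptor PPAR alpha with its coactivator PGC-1 alpha (Ppargc1a) drives many of these genes.

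Expression was given as FPKM (fragments scaled by transcript length and library size), so levels can be set side by side between genes, and log2 fold changes refer to log2(FPKM + 0.1). Each table was tested on its own with limma, p values were adjusted over all tested genes (Benjamini-Hochberg), and a member was called changed at an adjusted p under 0.05 and a DEG when its absolute log2 fold change was also at least 2. The number of reads is unknown, since at most 7.42% of low values shared a common step, so the spread between 3 rats is the one measure of precision. Over all tested genes the median log2 fold change was 0.30 after adenine and 0.62 after UUO, and median-of-ratios scaling moved these to 0.014 and 0.032. A member that stayed level as deposited therefore lay below the typical gene. In whole kidney RNA, fewer cells of a type and less RNA per cell cannot be told apart.

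In the adenine model, 25 of 37 tested members were downregulated and 2 were upregulated, where 19.9% of all tested genes were lower and 39.6% higher. In the UUO model, 34 of 39 members were downregulated and 2 were upregulated, against 14.4% lower and 56.1% higher over all genes. Members had a median log2 fold change of -0.99 after adenine and -1.02 after UUO, and over the 37 listed in both tables the UUO median was -0.90. DEGs with a fall numbered 3 in the adenine model (Acox2, Acadm and Ehhadh), against 5.03% of all tested genes, and 7 in the UUO model (these 3 with Acot12, Decr2, Eci2 and Acat1), against 4.21%. The samples of both groups did not overlap for 30 of 37 members in the adenine model, beside 68.0% of all genes, and for 36 of 39 in the UUO model, beside 75.7%. Median-of-ratios scaling gave 29 lower and 1 higher in the adenine model and 37 lower and 1 higher in the UUO model, and rescaling FPKM to equal sums gave 19 and 27 lower.

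**Figure D1:**
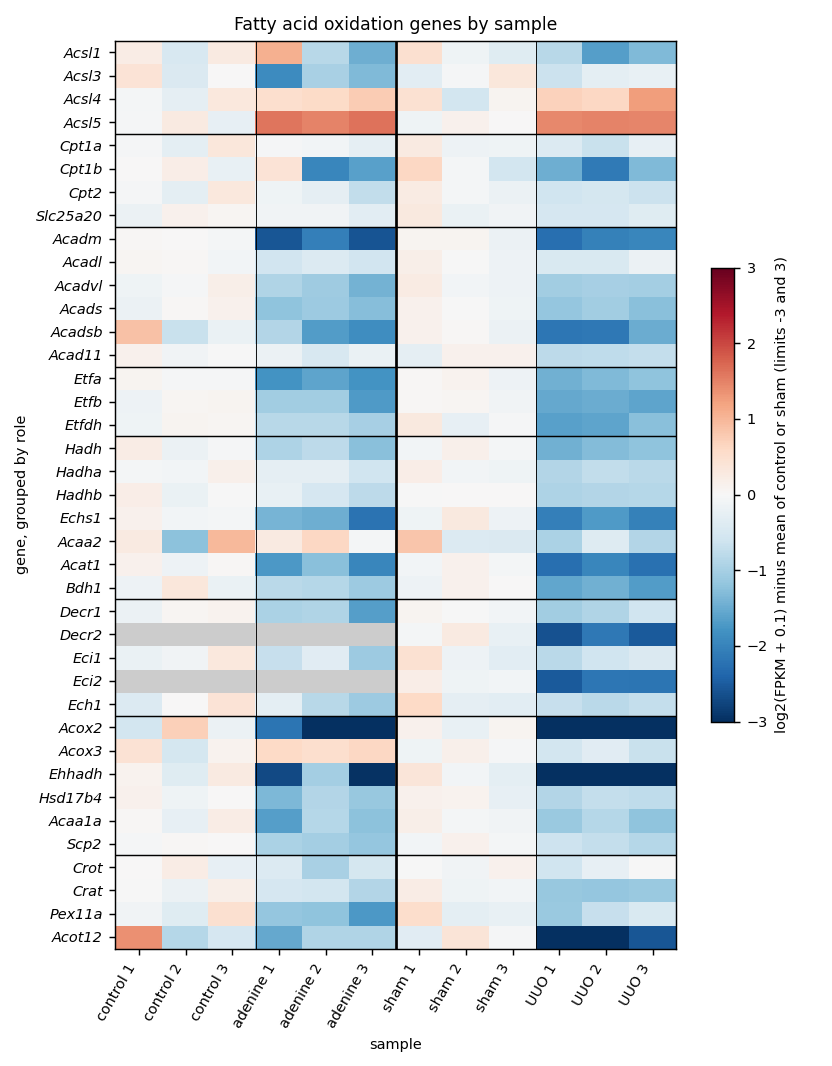
Log2(FPKM + 0.1) of each member in each of the 12 samples, relative to the mean of its control or sham group, with genes grouped by role and grey for the 2 genes not listed in the control and adenine table. Blue (lower) fills most of the adenine and UUO columns, Acsl5 and Acsl4 are red (higher) in both models, and Acsl1 and Cpt1b are red in adenine replicate 1 alone among the model samples.

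The summed FPKM of the members was 2858 ± 148 in control rats and 1451 ± 198 in adenine rats (mean ± SD, n = 3 rats each). For sham rats it was 3821 ± 372 and for UUO rats 1713 ± 86.0 (n = 3 each). As a share of all FPKM the members held 0.465% to 0.532% in control samples and 0.261% to 0.332% in adenine samples, with 0.549% to 0.678% in the sham and 0.300% to 0.337% in the UUO samples. The ranges of model and reference did not overlap in either table. At the top of the order stood Acadm, the medium-chain acyl-CoA dehydrogenase, at 324 ± 11.9 FPKM in control and 327 ± 31.7 in sham rats, and at the bottom Acot12, a thioesterase that splits acetyl-CoA, at 1.76 ± 1.65 and 3.44 ± 0.901. Neighbours near the top, such as Etfb (237 ± 20.3) and Etfa (213 ± 10.2) in the control group, overlapped between samples.

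Because PPAR alpha binds with its partner RXR to 2 copies of AGGTCA spaced by 1 base, the promoters of the members were searched for these letters on both strands. RefSeq windows (rat build GRCr8, 250 bases before the gene start) were given for 34 of the 39 members. A single AGGTCA was found in 6 of 34 (17.6%), where 14.1% of all 33469 windows held one. The spaced pair was in 0 of 34 windows and in 0.0508% of all windows, and with any base allowed in place of the T it was in 0 of 34 and in 0.368% of all windows. The stretches of 60 bases around the copy of 3 of these 6 are shown as examples, with the copy in capitals (TGACCT is AGGTCA on the other strand). Echs1 and Eci1 were downregulated in both models and Acot12 in the UUO model alone. Not shown are Acad11, Hsd17b4 and Acadvl, the last with copies at 169 to 164 and 17 to 12 bases before the gene start. The stretches lie at chr1:204333567-204333626 (minus strand, Echs1), chr2:24721827-24721886 (plus strand, Acot12) and chr10:13961129-13961188 (plus strand, Eci1).
Echs1: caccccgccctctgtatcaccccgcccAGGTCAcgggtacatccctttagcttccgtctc
Acot12: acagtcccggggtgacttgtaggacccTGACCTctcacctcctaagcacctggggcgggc
Eci1: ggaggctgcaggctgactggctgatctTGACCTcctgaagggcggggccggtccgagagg
A match of 6 letters is a description of the sequence and not a binding site, and windows without one say nothing on distant sites.

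The acyl-CoA synthetases, which activate fatty acids, had 1 of 4 members lower and 2 of 4 higher in each model. Over all tested genes 19.9% and 14.4% were lower and 39.6% and 56.1% higher. After median-of-ratios scaling 1 of 4 was higher in each model. Acsl5, an isoenzyme of mitochondria and endoplasmic reticulum, stood at 17.8, 22.2 and 15.5 FPKM in control samples and at 55.9, 51.5 and 57.2 in adenine samples. It rose by 1.58 on the log2 scale (SE 0.15, limma adjusted p = 0.00021). In sham samples it was 20.5, 24.5 and 22.5 and in UUO samples 61.1, 62.7 and 62.0 FPKM, a rise of 1.46 (SE 0.09, limma adjusted p = 3e-05). The groups did not overlap in either model, and the adenine and UUO means were 297% and 275% of their reference.

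Acsl4, which prefers arachidonic acid, was 9.74, 8.47 and 12.7 FPKM in control and 14.4, 15.2 and 17.4 in adenine samples, a rise of 0.62 on the log2 scale (SE 0.17, limma adjusted p = 0.020). In sham samples it was 12.3, 6.10 and 9.53 and in UUO samples 14.5, 13.9 and 21.5, a rise of 0.86 (SE 0.29, limma adjusted p = 0.031). Under median-of-ratios scaling the values were 0.32 (adjusted p = 0.138) and 0.26 (adjusted p = 0.431), and the call was also lost without adenine replicate 3 or control replicate 1 and without UUO replicate 3, sham replicate 2 or sham replicate 3. Acsl3, an isoenzyme of lipid droplets and endoplasmic reticulum, was 30.5, 16.8 and 23.1 FPKM in control and 6.09, 11.6 and 9.02 in adenine samples, and fell by 1.39 on the log2 scale (SE 0.30, limma adjusted p = 0.0065). After UUO its groups overlapped, with 17.3, 21.0 and 27.1 FPKM in sham and 13.8, 17.5 and 18.5 in UUO samples, and the log2 fold change was -0.38 (SE 0.19, limma adjusted p = 0.11).

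Acsl1, the main synthetase of fat, liver and muscle, was 33.0, 20.5 and 34.1 FPKM in control samples and 60.1, 15.9 and 10.3 in adenine samples, and its log2 fold change was -0.41 (SE 0.62, limma adjusted p = 0.59). Replicate 1 of the adenine group was the highest of these 6 samples while the other two adenine samples were the lowest. It was 57.3, 37.9 and 32.1 FPKM in sham and 23.1, 13.0 and 16.3 in UUO samples, and fell by 1.27 on the log2 scale (SE 0.28, limma adjusted p = 0.0054).

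The carnitine shuttle moves long-chain acyl groups across the mitochondrial membranes. It had 0 of 4 members called in the adenine model and 4 of 4 downregulated in the UUO model. Lower genes made up 19.9% and 14.4% of all tested genes. Cpt1a, the rate-limiting carnitine palmitoyltransferase of kidney and liver, was 36.0, 30.0 and 46.5 FPKM in control and 36.1, 35.0 and 30.6 in adenine samples, with overlapping groups. Its log2 fold change was -0.13 (SE 0.17, limma adjusted p = 0.56), and it was 0.14 with FPKM rescaled to equal sums. In sham samples Cpt1a was 70.8, 52.5 and 53.4 and in UUO samples 43.8, 36.8 and 49.0 FPKM, a fall of 0.44 on the log2 scale (SE 0.16, limma adjusted p = 0.039) that was not called without UUO replicate 1, UUO replicate 2 or sham replicate 1. Cpt2, which returns the acyl group to coenzyme A inside mitochondria, was 14.2, 11.8 and 18 FPKM in control and 13.2, 11.9 and 8.63 in adenine samples (log2 fold change -0.38, limma adjusted p = 0.17). For UUO, Cpt2 was 21.7, 17.6 and 16.1 FPKM in sham and 12, 12.8 and 11.7 in UUO samples, without overlap (log2 fold change -0.59, limma adjusted p = 0.0058). Slc25a20, the carnitine-acylcarnitine carrier, had log2 fold changes of -0.18 after adenine (0.086 with FPKM rescaled to equal sums) and -0.46 after UUO, the latter lost without UUO replicate 1 or 2.

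Cpt1b, the isoform of muscle and fat, was the lowest of the 4 at 7.18 ± 1.04 FPKM in control and 8.01 ± 3.33 in sham rats. It was 9.49 FPKM in adenine replicate 1 and 1.75 and 2.23 in the other two adenine samples, so the groups overlapped (log2 fold change -1.06, limma adjusted p = 0.16). After UUO it fell by 1.63 on the log2 scale (limma adjusted p = 0.0048). None of the 4 genes passed the test of a difference between adenine and UUO (adjusted p of 0.29 to 0.57). After median-of-ratios scaling 2 of the 4 were called in the adenine model, Cpt2 at -0.67 (adjusted p = 0.040) and Slc25a20 at -0.48 (adjusted p = 0.026).

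The acyl-CoA dehydrogenases open each mitochondrial round for a range of chain lengths. They were downregulated in 5 of 6 cases after adenine and 6 of 6 after UUO, beside 19.9% and 14.4% of all tested genes. Acadm was 333, 328 and 310.1 FPKM in control and 54.4, 78.1 and 53.5 in adenine samples. Its log2 fold change was -2.40 (SE 0.16, limma adjusted p = 7.1e-05), and 19.2% of the control mean was left. In sham samples Acadm was 348, 343 and 291 FPKM and in UUO samples 68.0, 79.5 and 83.4, so that it fell by 2.09 on the log2 scale (SE 0.12, limma adjusted p = 2.2e-05) and 23.5% of the sham mean left. No control or sham sample was under 291 FPKM and no adenine or UUO sample was over 83.4.

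The other dehydrogenases had smaller log2 fold changes. Acadl, for long chains, kept 69.8% of the control mean and 77.2% of the sham mean, with log2 fold changes of -0.52 and -0.37. The latter call was lost without UUO replicate 1, UUO replicate 2, sham replicate 1 or sham replicate 2. Acadvl, for very long chains, had log2 fold changes of -1.12 and -1.02, and Acads, for short chains, -1.19 and -1.15. Acadsb, which acts on branched chains of isoleucine breakdown, fell by 1.48 (not called without adenine replicate 2 or 3) and 1.93 on the log2 scale. Acad11, for the longest chains, had -0.28 (limma adjusted p = 0.10) and -0.75.

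All 3 genes of the electron transfer flavoprotein system were downregulated in both models, beside 19.9% and 14.4% of all tested genes. Etfa, the alpha subunit, was 224, 207 and 206 FPKM in control and 61.5, 70.4 and 61.5 in adenine samples (log2 fold change -1.72, SE 0.10, limma adjusted p = 5e-05). It was 198, 209 and 175 FPKM in sham and 70.8, 77.6 and 83.8 in UUO samples (log2 fold change -1.32, SE 0.10, limma adjusted p = 7e-05). Etfb, the beta subunit, had log2 fold changes of -1.26 and -1.53. Both subunits form 1 heterodimer, and neither passed the test of a difference between the models (adjusted p of 0.058 for Etfa and 0.38 for Etfb). Etfdh, the membrane dehydrogenase that receives their electrons, was 48.6, 56.6 and 55.9 FPKM in control and 30.1, 29.8 and 26.8 in adenine samples, a fall of 0.89 on the log2 scale (SE 0.11). In sham samples it was 86.3, 60.2 and 68.8 and in UUO samples 22.9, 23.7 and 29.8 FPKM, a fall of 1.48 (SE 0.16).

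**Figure D2:**
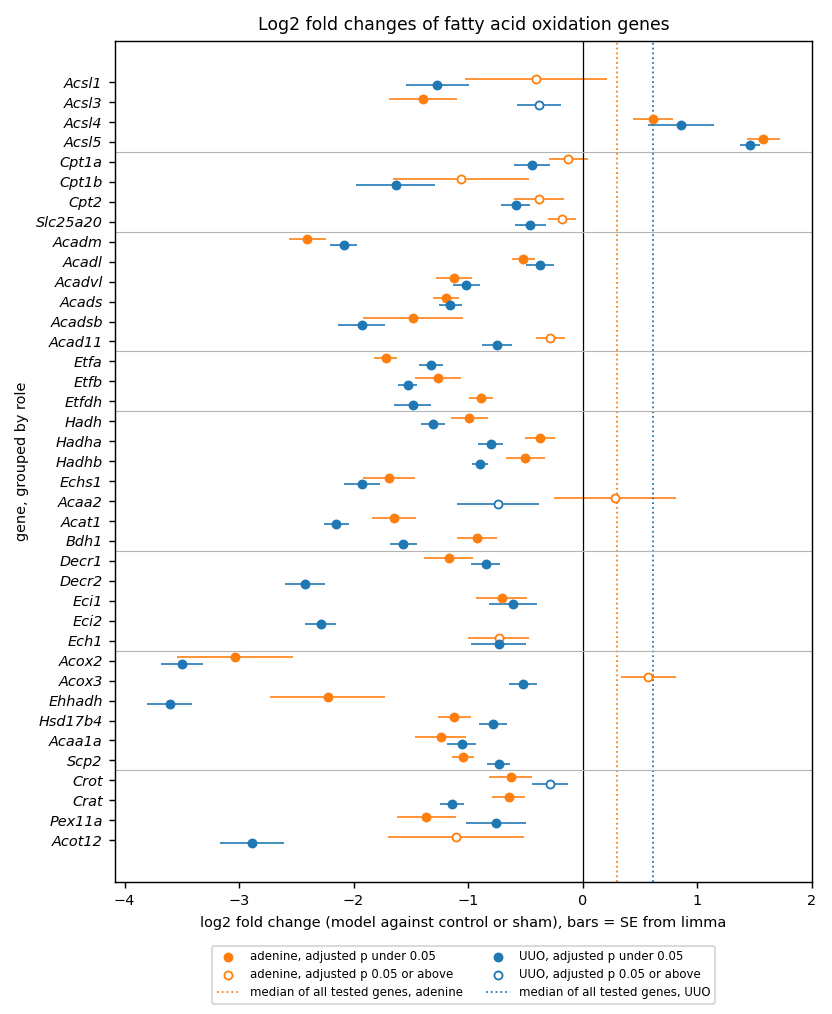
Log2 fold change of each member in the adenine model (orange) and the UUO model (blue) with the limma SE as bars, filled where the adjusted p was under 0.05. Most points lie left of 0 and of the dotted medians of all tested genes (0.30 and 0.62), Acox2 (adenine) and Ehhadh (UUO) lie farthest left, and Acox3 lies on opposite sides of 0.

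The mitochondrial hydratase, dehydrogenase and thiolase steps were downregulated in 6 of 7 members in both models, beside 19.9% and 14.4% of all tested genes. Acat1, the acetoacetyl-CoA thiolase of the last step and of ketone body use, was 198, 163 and 185 FPKM in control and 54.9, 75.7 and 46.6 in adenine samples (log2 fold change -1.65, SE 0.19, limma adjusted p = 0.0005). It was 249, 289 and 252 FPKM in sham and 54.8, 67.4 and 55.8 in UUO samples (log2 fold change -2.15, SE 0.11, limma adjusted p = 1.9e-05). Echs1, the short-chain enoyl-CoA hydratase, was 121, 104 and 105 FPKM in control and 41.9, 39.9 and 23.4 in adenine samples (log2 fold change -1.69), and it was 133, 178 and 132 FPKM in sham and 35.4, 45.3 and 35.5 in UUO samples (log2 fold change -1.92). The groups were apart in both models for both genes, with model means of 22.5% to 32.4% of their reference.

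The trifunctional protein subunits, which join 3 long-chain steps, were downregulated in both models. Hadha had log2 fold changes of -0.37 (limma adjusted p = 0.045) and -0.80, and Hadhb had -0.50 (limma adjusted p = 0.043) and -0.90. In the adenine model the call for Hadha was lost when any 1 sample was left out (adjusted p up to 0.14), and that for Hadhb without adenine replicate 2, adenine replicate 3, control replicate 1 or control replicate 3. Hadh, the short-chain hydroxyacyl-CoA dehydrogenase, had -0.99 and -1.31. Bdh1, which interconverts the ketone bodies, was 20.1, 28.5 and 19.5 FPKM in control and 12.7, 12.2 and 10.5 in adenine samples (log2 fold change -0.92, SE 0.17), and 27.2, 33.6 and 30.9 FPKM in sham and 10.2, 11.1 and 9.43 in UUO samples (log2 fold change -1.57, SE 0.11). Acaa2, the mitochondrial 3-ketoacyl-CoA thiolase, was the member not called in either model, and its reference samples spread widely. It was 54.7, 19.2 and 88.7 FPKM in control and 54.9, 70.3 and 43.7 in adenine samples (log2 fold change 0.28, or -0.0086 after median-of-ratios scaling), and 144, 60.9 and 59.4 FPKM in sham and 41.6, 61.3 and 44.0 in UUO samples (log2 fold change -0.74, limma adjusted p = 0.10).

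Enzymes that prepare unsaturated chains were downregulated in 2 of 3 listed members after adenine and 5 of 5 after UUO. The shares over all tested genes were 19.9% and 14.4%. Eci2, an enoyl-CoA isomerase taken here as peroxisomal, was the second most abundant member in the sham group. It was 327, 259 and 269.7 FPKM in sham and 49.7, 63.0 and 62.2 in UUO samples (log2 fold change -2.29, SE 0.13, limma adjusted p = 2.6e-05). Decr2, the peroxisomal dienoyl-CoA reductase, was 44.7, 56.5 and 40.0 FPKM in sham and 7.49, 10.4 and 8.07 in UUO samples (log2 fold change -2.43, SE 0.17, limma adjusted p = 5.1e-05). Their mitochondrial counterparts fell less in the UUO model, with -0.85 for Decr1 and -0.61 for Eci1, and in the adenine model these had -1.17 and -0.71. The call for Eci1 was lost without adenine replicate 1, adenine replicate 3, control replicate 2 or control replicate 3, and without UUO replicate 1, UUO replicate 2 or sham replicate 2. Without sham replicate 1 it fell by 0.38 in the UUO model. Ech1, a dienoyl-CoA isomerase of both organelles, had -0.73 in each model, called in the UUO model (limma adjusted p = 0.029) and not in the adenine model (limma adjusted p = 0.051). It was called without adenine replicate 1 (-0.96) or control replicate 1 (-0.94), lost in the UUO model without UUO replicate 1, 2 or 3, and fell by 0.44 there without sham replicate 1.

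The peroxisomal oxidases, hydratases and thiolases held the members with the largest fall in each model, Acox2 after adenine and Ehhadh after UUO. Ehhadh, the bifunctional enzyme of the peroxisomal hydration and dehydrogenation steps, was 43.8, 31.4 and 49.2 FPKM in control and 6.19, 20.1 and 5.11 in adenine samples. The groups did not overlap, though adenine replicate 2 lay above the other two adenine samples (log2 fold change -2.23, SE 0.50, limma adjusted p = 0.0083). With 1 sample left out its log2 fold change ran from -2.83 to -1.86, short of the DEG threshold without adenine replicate 1 or 3. In sham samples Ehhadh was 93.5, 68.6 and 59.0 FPKM and in UUO samples 5.16, 7.03 and 5.51, and 8.00% of the sham mean was left (log2 fold change -3.61, SE 0.20, limma adjusted p = 2.2e-05). The difference between the models, -1.38 on the log2 scale (SE 0.54), did not pass the threshold (adjusted p = 0.073).

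Acox2, the oxidase of branched chains and bile acid intermediates, was 6.03, 14.6 and 7.88 FPKM in control and 1.87, 0.484 and 1.04 in adenine samples (log2 fold change -3.04, SE 0.51, limma adjusted p = 0.0024). It was 8.88, 6.90 and 8.56 FPKM in sham and 0.611, 0.569 and 0.690 in UUO samples (log2 fold change -3.50, SE 0.18, limma adjusted p = 1.9e-05). No model sample reached 2 FPKM and no reference sample was under 6. Acaa1a, the peroxisomal thiolase, was 62.2, 50.8 and 70.1 FPKM in control and 19.2, 33.5 and 25.8 in adenine samples (log2 fold change -1.24, SE 0.22, limma adjusted p = 0.0032), and 66.1, 55.7 and 54.2 FPKM in sham and 26.9, 32.4 and 25.3 in UUO samples (log2 fold change -1.06, SE 0.13, limma adjusted p = 0.00039). Hsd17b4, the second bifunctional enzyme, had -1.12 and -0.78, and Scp2, a sterol carrier protein whose longer form is a thiolase, had -1.04 and -0.73, all called.

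Acox3, the second branched-chain oxidase, fell less than its paralog Acox2 in the UUO model and was not called in the adenine model. It was 13.5, 6.86 and 10.7 FPKM in control and 15.1, 14.1 and 15.4 in adenine samples, where every adenine sample lay above every control sample, but the log2 fold change of 0.57 was not called (SE 0.24, limma adjusted p = 0.078). Without control replicate 1 it was 0.79 (adjusted p = 0.022), and after median-of-ratios scaling it was 0.28 (limma adjusted p = 0.32). In sham samples Acox3 was 18.7, 22.5 and 20.0 FPKM and in UUO samples 13.8, 16 and 12.8, a fall of 0.52 on the log2 scale (SE 0.12, limma adjusted p = 0.0078).

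Genes for export from peroxisomes and for their proliferation were grouped with the thioesterase Acot12. Of these 4 members, 3 were downregulated in each model, beside 19.9% and 14.4% of all tested genes. Crat, the carnitine acetyltransferase, had log2 fold changes of -0.65 and -1.14. Crot, which makes acylcarnitines of medium length for export, had -0.63 and -0.28, the first lost without adenine replicate 2, adenine replicate 3, control replicate 1 or control replicate 2 and the second not called (limma adjusted p = 0.15) except without UUO replicate 3. Pex11a, a membrane protein of dividing peroxisomes, fell by 1.37 and 0.76, the latter lost without UUO replicate 1 or 2 or sham replicate 1, where it was 0.50. Acot12 was 3.66, 0.705 and 0.919 FPKM in control and 0.405, 0.682 and 0.679 in adenine samples, so control replicate 1 set most of the log2 fold change of -1.11 (limma adjusted p = 0.15). Against sham rats, Acot12 was 2.63, 4.41 and 3.27 FPKM in sham and 0.297, 0.340 and 0.487 in UUO samples, a fall of 2.89 on the log2 scale (SE 0.28, limma adjusted p = 0.00016), and at these low levels the added 0.1 brings the value nearer to 0.

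**Figure D3:**
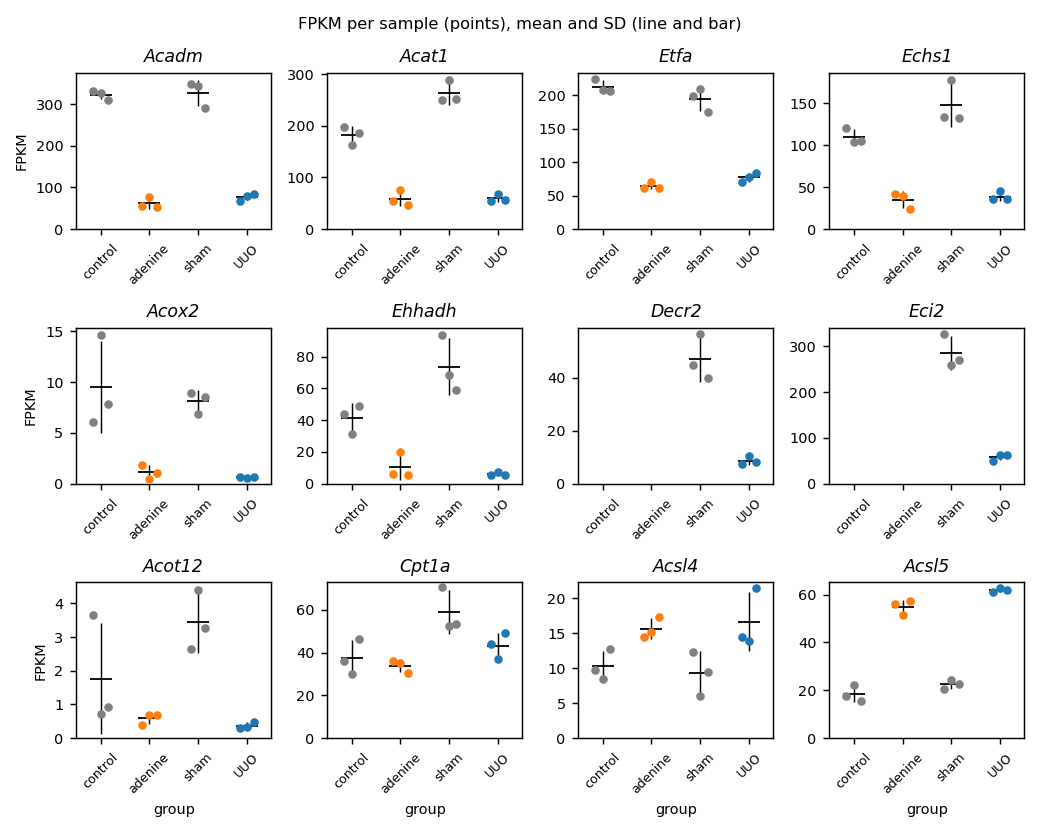
FPKM of 12 members in each sample (points) with the group mean (line) and SD (bar), each panel from 0. Acadm, Acat1, Etfa, Echs1, Acox2 and Ehhadh lie lower in adenine and UUO samples than in control and sham samples, Acsl5 lies higher, Cpt1a overlaps in the adenine model, and Decr2 and Eci2 are drawn for sham and UUO samples alone.

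Mitochondrial and peroxisomal members were then set side by side, where 19.9% of all tested genes were lower after adenine and 14.4% after UUO. In the adenine model 16 of 21 mitochondrial members and 7 of 8 peroxisomal members were downregulated, with medians of -0.99 and -1.18. In the UUO model 20 of 21 and 9 of 10 were downregulated, with medians of -1.15 and -0.92. The order of the medians thus differed between the models, and over the 8 peroxisomal members listed in both tables the UUO median was -0.77. Peroxisomal members spread farther, from -3.04 (Acox2) to 0.57 (Acox3) in the adenine model and from -3.61 (Ehhadh) to -0.28 (Crot) in the UUO model. Mitochondrial members ran from -2.40 (Acadm) to 0.28 (Acaa2) and from -2.15 (Acat1) to -0.37 (Acadl). The 8 members of both or other places had medians of -0.53 and -0.74. No test was made of these medians, since the genes of a list are not replicates.

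Summed over the members, the peroxisomal FPKM were 17.2% ± 0.602 of the mitochondrial FPKM in control and 17.1% ± 2.17 in adenine rats (mean ± SD, n = 3 each). The ratio was 17.5% ± 0.402 in sham and 20.2% ± 0.886 in UUO rats (n = 3 each), with UUO samples at 19.2% to 20.9% and sham samples at 17.1% to 17.9%. Decr2 and Eci2 were left out of these sums, so that both tables had the same 8 peroxisomal members, and the direction in the UUO model turned with them. With both counted in, a choice made after the values were seen, the ratio was 29.9% ± 0.767 in sham (29.2% to 30.8%) and 25.9% ± 1.11 in UUO rats (25.0% to 27.1%). The adenine samples covered 14.9% to 19.3% and enclosed the control range of 16.6% to 17.7%.

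**Figure D4:**
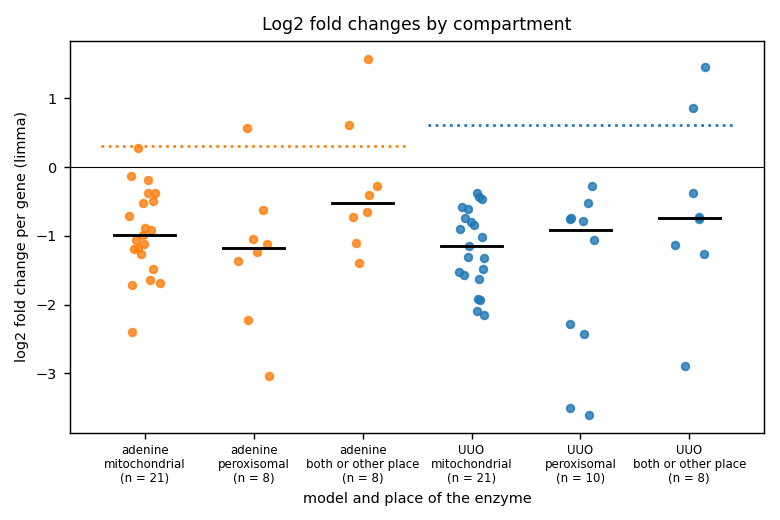
Log2 fold change of each tested member (points) by model and place of the enzyme, with the median of the points (black line) and the median of all tested genes of the model (dotted line). The medians of the mitochondrial and peroxisomal members lie between -0.92 and -1.18, and 2 to 4 peroxisomal members lie below -2 in each model.

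Differences between the models were tested for the 37 shared members, and 4 passed, where 27.0% of 13486 genes listed in both did and the median difference of all genes was 0.28 (UUO minus adenine). Acox3 differed by -1.10 (SE 0.27, adjusted p = 0.010), Bdh1 by -0.64 (SE 0.21, adjusted p = 0.035) and Etfdh by -0.59 (SE 0.19, adjusted p = 0.037), each lower in the UUO model. Acsl3 differed by 1.01 (SE 0.35, adjusted p = 0.048), lower in the adenine model. Acox3 passed in all 12 fits with 1 sample left out, while Etfdh passed in 5 and Bdh1 and Acsl3 in 4 each. For the other 33 members, among them Acadm (0.31, adjusted p = 0.26) and Acat1 (-0.50, adjusted p = 0.11), the difference was not detectable with 3 rats a group.

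Some libraries stood apart in ways that touched members. Markers of adipocytes, the cells of the fat that surrounds the kidney, summed to 472 FPKM in adenine replicate 1. The sums were 22.8 and 19.2 in the other adenine samples and 45.6 to 54.0 in control samples. Much of the control sums was 1 gene, Cidec. It was 20.4, 37.1 and 33.1 FPKM in control and 38.0, 4.92 and 4.19 in adenine samples. In adenine replicate 1 Adipoq, the adipocyte hormone adiponectin, was 128 FPKM against 4.31 and 3.78, and Plin1, which coats the fat droplet, was 92.6 against 0.0439 and 0.0656. Retn, the fat cell hormone resistin, was 42.5 FPKM there and was listed at 0 in the other adenine samples. Among controls, replicate 1 had the highest Plin1 (10.9 FPKM against 0.144 and 1.35). UUO replicate 1 had a sum of 196 FPKM beside 18.8 in each of the others, and 39.5 to 59.4 in sham samples. Acsl1 and Cpt1b were high in the same adenine library. Without it their log2 fold changes in the adenine model were -1.15 (adjusted p = 0.021) and -1.80 (adjusted p = 0.0013), and without UUO replicate 1 those in the UUO model were -1.49 and -1.71. The part of fat in these values was not tested beyond this. Without adenine replicate 1, 26 members were lower and 2 higher, with 2 DEGs.

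**Figure D5:**
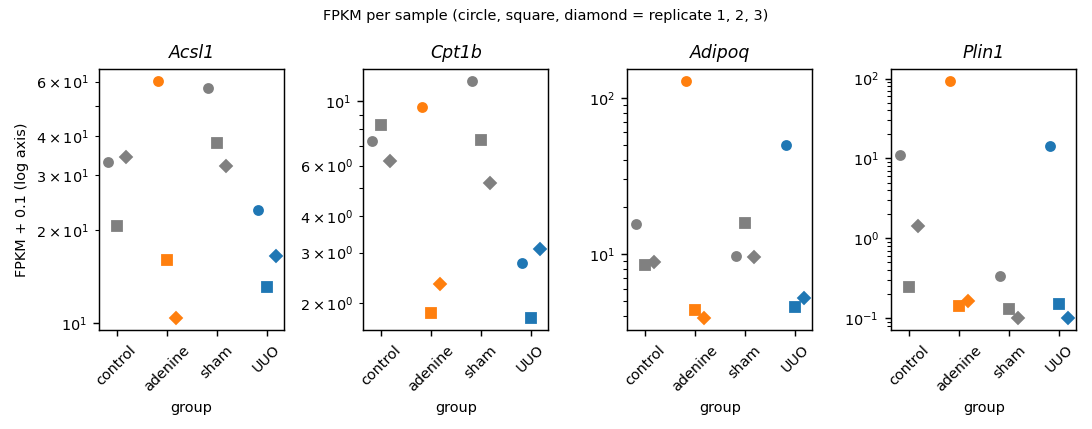
FPKM + 0.1 on a log axis of Acsl1, Cpt1b and the adipocyte markers Adipoq and Plin1 in each sample, with a circle, square and diamond for replicates 1, 2 and 3. The circle of the adenine group lies far above its other two samples in all 4 panels, and the circle of the UUO group does so for Adipoq and Plin1.

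Sham replicate 1 was the highest sham sample for 24 of 39 members, beside 32.1% of all entries, and also the highest for Pdk4 (33.9 FPKM against 2.48 and 4.26), the kinase that turns mitochondria from glucose to fat. Without it 31 members were downregulated and 6 were DEGs. Adenine replicate 3 was the lowest adenine sample for 26 of 37 members, beside 22.8% of all entries, and without it 20 were downregulated. UUO replicate 1 was the lowest UUO sample for 24 of 39 members, beside 34.5% of all entries. Control replicate 2 was the lowest control sample for 20 of 37, beside 37.3%. It was also low in Slc12a3 (12.9 FPKM against 197 and 164) and highest in Slc12a1 (229 against 135 and 160). Adenine replicate 1 was the highest adenine sample for 19 of 37 members, beside 28.5%. Without UUO replicate 1 or UUO replicate 2, 28 members were downregulated in the UUO model.

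Of 15 tested regulators of the pathway, 5 were downregulated and 1 upregulated after adenine, and 9 and 4 after UUO. Over all tested genes 19.9% and 14.4% were lower and 39.6% and 56.1% higher. After median-of-ratios scaling the counts of regulators were 7 and 1 after adenine, and 9 and 1 after UUO. Ppara was 2.45, 0.544 and 0.716 FPKM in control and 0.893, 1.55 and 0.825 in adenine samples (log2 fold change 0.06, or -0.20 after median-of-ratios scaling, limma adjusted p = 0.94), and it fell by 0.90 in the UUO model (limma adjusted p = 0.0052). Ppargc1a had a log2 fold change of -0.23 after adenine (limma adjusted p = 0.50) and fell by 1.38 in the UUO model, from 9.67, 6.45 and 8.91 to 2.58, 2.81 and 4.10 FPKM. Hnf4a, a factor that keeps the identity of tubule and liver cells, fell most of the regulators in both models, by 2.42 and 1.93. The largest rises were those of Rxra, the partner of PPAR alpha, after adenine (1.72, limma adjusted p = 0.0073) and of Pparg, the receptor of fat cells, after UUO (2.05, limma adjusted p = 0.00024).

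PPAR alpha targets outside the members had 4 of 12 downregulated and 3 upregulated after adenine, and 5 and 3 after UUO, against the same shares of all genes as above. Median-of-ratios scaling left 4 and 3 after adenine and gave 6 and 2 after UUO. Cyp4a2, a fatty acid omega-hydroxylase, had the largest falls, -3.32 and -3.56, and Angptl4, an inhibitor of lipoprotein lipase, the largest rises, 2.94 and 2.96 (limma adjusted p = 0.0088 and 0.044). Angptl4 was 14.3 FPKM in sham replicate 1 against 0.662 and 0.871 in the others, and 24.2, 10.5 and 19.5 in UUO samples, so the groups overlapped. Its UUO call was lost after median-of-ratios scaling (2.39, limma adjusted p = 0.10) and with 1 sample left out (2.20 to 4.32, adjusted p up to 0.13). Pdk4 (1.39 and 0.25) was not called in either model (limma adjusted p = 0.16 and 0.82), and after median-of-ratios scaling its UUO value was -0.34. Plin2, the common lipid droplet coat, rose by 2.30 and 1.53.

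For uptake and binding of fatty acids, 4 of 8 tested genes were lower and 3 higher in the adenine model and 3 lower and 2 higher in the UUO model. These became, after median-of-ratios scaling, 4 lower and 2 higher, and 4 lower and 0 higher. Slc27a2, a very long chain acyl-CoA synthetase and transporter, fell most (-3.10 and -2.44), and Fabp4, the binding protein of fat cells and macrophages, had the largest rise in the adenine model, 4.01, with 1 sample high in adipocyte markers, and 2.81 in the UUO model, which was not called (limma adjusted p = 0.052). Cd36 was not analysed here. Lipid synthesis and malonyl-CoA genes had 1 of 8 lower and 3 higher after adenine and 2 of 7 lower and 3 higher after UUO, and under median-of-ratios scaling 2 lower and 3 higher, and 2 lower and 1 higher. The shares of lower genes (19.9% and 14.4%) and of higher genes (39.6% and 56.1%) over all genes apply to these lists too. Mlycd, which removes malonyl-CoA, the inhibitor of the carnitine shuttle, fell most in the adenine model (-1.57) and Scd, a desaturase, rose most (3.70, limma adjusted p = 0.012), while in the UUO model Acacb, which makes malonyl-CoA at mitochondria, had -1.13 and Elovl6, an elongase, 1.31 (limma adjusted p = 0.24). The Elovl6 value turned on sham replicate 2, listed at 0.0001 FPKM against 1.01 and 1.01 in the others, and was 0.16 without that sample.

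Most tested genes of the same organelles were also lower. Lower genes made up 19.9% and 14.4% of all tested genes and higher genes 39.6% and 56.1%. Other peroxisome genes had 12 of 19 lower and 2 higher in the adenine model (median log2 fold change -0.81) and 11 of 18 lower and 4 higher in the UUO model (median -0.58). After median-of-ratios scaling 13 were lower and 1 higher after adenine (median -1.10), and 14 and 1 after UUO (median -1.18). Amacr, which turns branched chains to the form that Acox2 accepts, fell most, from 159, 153 and 183 to 7.40, 14.2 and 8.63 FPKM in the adenine model and from 207, 215 and 206 to 9.01, 10.7 and 9.82 in the UUO model (log2 fold changes -4.07 and -4.40). Genes of the TCA cycle, which burns the acetyl-CoA, had 14 of 16 lower and 1 higher in the adenine model (median -0.75) and 13 of 15 lower and 0 higher in the UUO model (median -1.08). The largest fall after adenine was in Sucla2 (-1.52), and Cs, citrate synthase, had 0.67 (limma adjusted p = 0.029) and -0.09 (limma adjusted p = 0.31). The call for Cs after adenine was lost with median-of-ratios scaling (0.38, limma adjusted p = 0.17) and with 1 sample left out (adjusted p up to 0.082).

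Marker lists of tubule segments fell in the median in both models, while those of leukocytes and fibroblasts rose. Beside the marker counts below, 19.9% and 14.4% of all tested genes were lower and 39.6% and 56.1% higher. Proximal tubule markers summed to 1555 to 2483 FPKM in control samples and 191 to 596 in adenine samples, with 5 of 10 lower and 2 higher, and 2285 to 2709.7 in the sham and 301 to 594 in the UUO samples, with 6 of 10 lower and 0 higher. The largest falls were in Slc34a1, the phosphate transporter, in the adenine model (-4.31) and Slc22a6, the organic anion transporter, in the UUO model (-4.54). Slc4a4, the basolateral bicarbonate transporter, was highest at 4.53 (limma adjusted p = 0.0052) and 0.71 (limma adjusted p = 0.26). It was low in control samples (2.11, 0.135 and 0.493 FPKM), against 7.25, 2.80 and 7.85 in sham samples. Slc5a12, also called higher after adenine, was 1.81, 0.0254 and 0.362 FPKM in control samples. Proximal tubule markers had a median log2 fold change of -1.50 after adenine and -1.98 after UUO. Thick limb and distal markers had 5 of 7 and 7 of 7 lower (medians -1.59 and -3.21), with the largest falls in Umod (-3.43) and Calb1 (-4.93) and the smallest in Aqp2 (-0.98) and Cldn16 (-0.89).

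Leukocyte markers summed to 16.3 to 20.9 FPKM in control and 431 to 709 in adenine samples, and to 17.6 to 25.4 in sham and 195 to 222 in UUO samples. Of these, 6 of 7 and 6 of 6 tested were higher, led by Itgam (7.28) in the adenine model and Cd68 (3.71) in the UUO model, with the lowest values in Cd79a (1.54, limma adjusted p = 0.11) and Ptprc (2.73). Fibroblast markers rose in 7 of 7 and 8 of 8 tested, from 81.5 to 118 FPKM in control to 567 to 768 in adenine samples and from 76.9 to 105 in sham to 1073 to 2327 in UUO samples. Lum, a matrix proteoglycan, rose most (4.40 and 5.47), and Acta2 (0.96) and Pdgfra (1.78) least. The adenine call for Acta2 was lost with median-of-ratios scaling (0.67, limma adjusted p = 0.067). Endothelial markers had 3 of 5 lower and 1 higher in the adenine model and 1 lower and 2 higher in the UUO model, between Vwf (-2.14 and -1.20) and Cdh5 (0.84 and 2.48), and after median-of-ratios scaling 3 lower and 0 higher, and 2 lower and 1 higher. Adipocyte markers had 0 of 5 called in the adenine model and 1 lower and 1 higher of 3 in the UUO model, between Cidec (-1.65 and -2.36) and Cfd (4.32 and 6.08). Of striated muscle markers 1 was tested, Tnnt3, at 1.54 and 1.81, and its adenine call, with overlapping groups, was lost after median-of-ratios scaling (limma adjusted p = 0.066) and with 1 sample left out (adjusted p up to 0.10). The part of these cell types in the falls of the members was not tested, and it cannot be told apart from less RNA per cell.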

How the data were processed

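Poly(A) RNA of 12 rat kidneys was sequenced from stranded libraries. The submitters' processing notes name cutadapt 1.9, HISAT2 2.0.4, StringTie 1.3.4d, edgeR and DESeq2, and the genome build is not given in the sources used here. The authors deposited FPKM values per gene in a table for each model and its reference group. The tables differ in entries and lowest value (0 and 0.0001) and were fitted separately. An entry was tested if 3 or more of its 6 samples reached an FPKM of 0.5, on log2(FPKM + 0.1) with limma 3.58.1 (lmFit, eBayes with trend, R 4.3.3). Python 3.11.15 was used for the remaining steps. The script was tested on simulated data. The difference between the models was divided by the root of the summed squared SEs, which takes the tables as independent. Members and lists were chosen with earlier results of these data known. Each member is named, with values in every sample for the 6 largest falls and 4 largest rises called in each model, for Cpt1a, Cpt2, Acadm, Ehhadh and Acaa1a and for members that differed between the models. Acsl1, Cpt1b and Acaa2 were added after their values were seen. Of other lists, the largest fall and rise are named, with Ppara, Ppargc1a and Pdk4. Some genes that this rule takes in are not reported here. Alternatives were other pseudocounts, filters and scalings, eBayes without trend, a replicate block and leaving out each sample.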

Additional observations from a re-analysis of the deposited data

Results flagged for a closer look

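A difference between the log2 fold changes of both models, tested gene by gene, picked out 4 members. Acox3 differed by -1.10 (UUO minus adenine, adjusted p = 0.010). Its mean was 10.3 FPKM in control and 14.9 in adenine rats, and 20.4 in sham and 14.2 in UUO rats. The groups did not overlap in either model. The adenine rise was not called (0.57, limma adjusted p = 0.078, or 0.28, limma adjusted p = 0.32, after median-of-ratios scaling), while the UUO fall was. For this gene the control and sham means lay farther apart than the adenine and UUO means. The part of the reference groups in its difference was not tested. Bdh1 differed by -0.64 (adjusted p = 0.035) and Etfdh by -0.59 (adjusted p = 0.037), with larger falls in the UUO model. Their sham means (30.6 and 71.7 FPKM) were above their control means (22.7 and 53.7). Their UUO means (10.2 and 25.5 FPKM) were below their adenine means (11.8 and 28.9). A higher sham level was not particular to them, as the mitochondrial members summed to a mean of 2674 FPKM in sham and 2198 in control rats. Acsl3 differed by 1.01 (adjusted p = 0.048), with the larger fall in the adenine model. With 1 sample left out in turn, the adjusted p stayed between 0.0030 and 0.031 for Acox3 and reached 0.092 for Bdh1, 0.096 for Etfdh and 0.12 for Acsl3. The models differ in cause and duration and their tables were made separately, which cannot be told apart from a difference in response.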

How the results depend on the processing

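The count of downregulated members stayed within 1.5 times the main count in every setting run, from 19 to 29 after adenine and from 27 to 37 after UUO. Median-of-ratios scaling gave 1 upregulated member in each model and 13 downregulated DEGs in the UUO model, and quantile normalization gave 1, 1 and 11. The mitochondrial and peroxisomal medians became -1.28 and -1.47 after adenine and -1.75 and -1.52 after UUO under median-of-ratios scaling, and -0.72, -0.91, -0.93 and -0.69 with FPKM rescaled to equal sums. The peroxisomal median was -1.29 after UUO with quantile normalization and -1.04 after adenine with Ech1, Crat and Acad11 counted in. Members that differed between the models numbered 11 with median-of-ratios scaling, 8 with quantile normalization, 1 without the trend and 1 to 8 with 1 sample left out. Leaving out 1 sample gave 1 to 2 upregulated members in each model, and peroxisomal medians of -1.34 to -1.07 in the adenine model. Direction reversed after adenine for Acaa2 (-0.0086 with median-of-ratios scaling, and -0.33 to 0.77 with 1 sample left out, lowest without control replicate 2), Cpt1a (0.14 with equal sums, and -0.27 to 0.041 with 1 sample left out, highest without control replicate 3), Slc25a20 (0.086 with equal sums) and Acsl1 (-1.15 to 0.12 with 1 sample left out, highest without adenine replicate 3). The peroxisomal share of the mitochondrial FPKM, UUO minus sham, was 2.69 percentage points over the 8 shared members and -4.0 with Decr2 and Eci2 counted in. The causes were not tested. Over all settings, 19 of 37 members after adenine and 28 of 39 after UUO stayed on their side of the threshold with the same sign. Deviations of same-numbered samples from their group means correlated by -0.12 to -0.05 in the adenine table and 0.05 to 0.11 in the UUO table. Same-numbered samples were not paired in the main fits, and these values cannot show whether they share more than a number. In the UUO table every sample correlated best with its own number, a hint from the data and not the design. With the replicate block, 22 and 32 members were downregulated, 2 upregulated in each model, and 2 differed between the models. The number of reads is unknown, so small falls such as those of Hadha and Acadl rest on the spread of 3 rats.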
